A study of Mus musculus with 81 samples.

Results

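Heart pools with a high level of Angptl4 transcript were set against pools with a low level. The 81 arrays of the series were ranked within each diet by their single Angptl4 probe set that carries 1 gene symbol. The 8 highest high fat arrays and the 8 highest chow arrays formed the high-Angptl4 group (16 arrays), and the 8 lowest of each diet the low-Angptl4 group (16 arrays). Together they are 32 of the 81 arrays, and the other 49 (23 high fat, 26 chow) lie outside both groups. All animals were males of BXD recombinant inbred strains, of C57BL/6J or of DBA/2J, 29 weeks old, fasted overnight and perfused before the heart was frozen. They had eaten a high fat or a chow diet. What the high fat diet contained is not stated in the labels. The protocol text attached to every sample describes chow alone, so the high fat group rests on the treatment label. Each array carried a pool of RNA from about 5 hearts of 1 strain on 1 diet, so the difference between animals of a pool is not seen, and each strain and diet has 1 array.

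Angiopoietin-like 4 is a secreted protein that inhibits lipoprotein lipase, the capillary enzyme that frees fatty acids from circulating triglycerides. Its gene is a target of the peroxisome proliferator-activated receptors (PPARs), which bind fatty acids, and its transcript is known to be high in fasted heart and muscle. In a fasted heart, fatty acids replace much of the glucose as fuel: PPAR targets such as the pyruvate dehydrogenase kinase Pdk4 are known to be induced, and with low insulin the FOXO factors enter the nucleus and raise genes of protein breakdown and autophagy.

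Of all genes tested, 4 had a level that also followed Angptl4 among the 49 arrays that the ranking did not select, namely Ucp3, Pdk4, Cpt1a and Lipe. Their promoters are shown for that reason, as 300 bases of GRCm38.p6 from RefSeq, running from 250 bases before to 50 bases after the annotated start. Capitals mark the nuclear receptor half-site AGGTCA or its reverse complement TGACCT, and the FOXO letters GTAAACA or their reverse complement TGTTTAC. The windows lie at chr7:100472741-100473040 (plus strand, Ucp3), chr19:3323051-3323350 (plus strand, Cpt1a), chr6:5496229-5496528 (minus strand, Pdk4) and chr7:25390063-25390362 (minus strand, Lipe).
Ucp3: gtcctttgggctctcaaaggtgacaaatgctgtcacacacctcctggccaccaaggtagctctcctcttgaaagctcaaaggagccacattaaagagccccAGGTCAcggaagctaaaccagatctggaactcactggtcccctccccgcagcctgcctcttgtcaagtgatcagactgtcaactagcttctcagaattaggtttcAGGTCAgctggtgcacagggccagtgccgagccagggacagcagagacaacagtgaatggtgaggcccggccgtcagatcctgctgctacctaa
Cpt1a: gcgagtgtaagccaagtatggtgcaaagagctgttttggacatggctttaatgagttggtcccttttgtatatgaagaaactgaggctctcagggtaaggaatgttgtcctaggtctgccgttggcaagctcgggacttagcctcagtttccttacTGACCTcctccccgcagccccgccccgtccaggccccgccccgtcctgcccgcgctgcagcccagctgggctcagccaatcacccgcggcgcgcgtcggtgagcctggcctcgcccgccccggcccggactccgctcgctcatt
Pdk4: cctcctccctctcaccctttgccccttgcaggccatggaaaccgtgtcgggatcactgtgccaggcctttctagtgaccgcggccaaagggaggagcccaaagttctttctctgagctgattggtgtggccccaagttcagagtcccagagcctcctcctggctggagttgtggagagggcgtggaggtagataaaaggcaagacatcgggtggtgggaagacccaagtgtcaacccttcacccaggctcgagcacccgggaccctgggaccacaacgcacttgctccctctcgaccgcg
Lipe: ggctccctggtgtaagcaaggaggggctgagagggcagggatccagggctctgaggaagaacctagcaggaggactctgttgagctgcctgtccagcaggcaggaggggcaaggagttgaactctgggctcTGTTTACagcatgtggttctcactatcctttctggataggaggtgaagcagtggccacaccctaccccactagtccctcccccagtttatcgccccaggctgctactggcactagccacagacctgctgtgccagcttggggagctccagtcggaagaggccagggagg
Ucp3 held AGGTCA at 2 places, starting 149 and 44 bases before the annotated start, Cpt1a held TGACCT 94 bases before it, and Lipe held TGTTTAC 119 bases before it. The Pdk4 window held none of these letters, and neither did another Lipe window at chr7:25395938-25396237. The half-site stood in 16.3% and the FOXO letters in 3.65% of 32851 promoters of the same length, on either strand. The direct repeat AGGTCANAGGTCA, which contains the half-site, stood in none of these windows and in 0.0396% of all promoters. A match describes letters and shows neither binding nor control. Angptl4 itself was not among the promoter entries used here.

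Values are in rescaled expression units, chosen by the authors so that the 41345 probe sets of any array average 8 with an SD of 2. The base and slope of the scale are not known here. It was treated as a log scale, which was not tested, and differences are given in units and never as folds. Across genes, the correlation between any pair of arrays lay from 0.969 to 0.992, and no array was a copy of another. As a check of the tissue, cardiomyocyte markers averaged 14.80 to 15.12 units in high-Angptl4 and 14.89 to 15.21 in low-Angptl4 arrays, where the median gene stood at 8.18. Hepatocyte markers stood apart in 4 chow arrays, with a mean over 14 genes above 10 units. One of them, BXD62, is a high-Angptl4 array at 11.1, and the other 3 (BXD96 at 12.2, BXD79 and BXD60) lie outside both groups.

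The ranking gene ran over a wide range in both diets, as the plot of Angptl4 and Pdk4 by array shows. Angptl4 was at 10.63, 10.92 and 11.41 units (lowest, median and highest array) in the high-Angptl4 high fat group, against 8.72, 9.31 and 9.46 in the low-Angptl4 high fat group. On chow Angptl4 was at 10.87, 11.08 and 11.19 in the high-Angptl4 group, against 8.41, 9.13 and 9.66 in the low-Angptl4 group. These values made the groups and are a description. Among high fat pools the highest Angptl4 belonged to BXD68 and the lowest to BXD84, and among chow pools the highest to BXD83 and the lowest to C57BL/6J. On high fat, BXD61 at 10.635 was the last high array and BXD71 at 10.599 the first outside, while BXD45 at 9.458 was the last low array and BXD87 at 9.608 the first outside. On chow, BXD89 at 10.866 was the last high array and BXD64 at 10.864 the first outside, while BXD101 at 9.660 was the last low array and BXD60 at 9.665 the first outside.

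**Figure D1:**
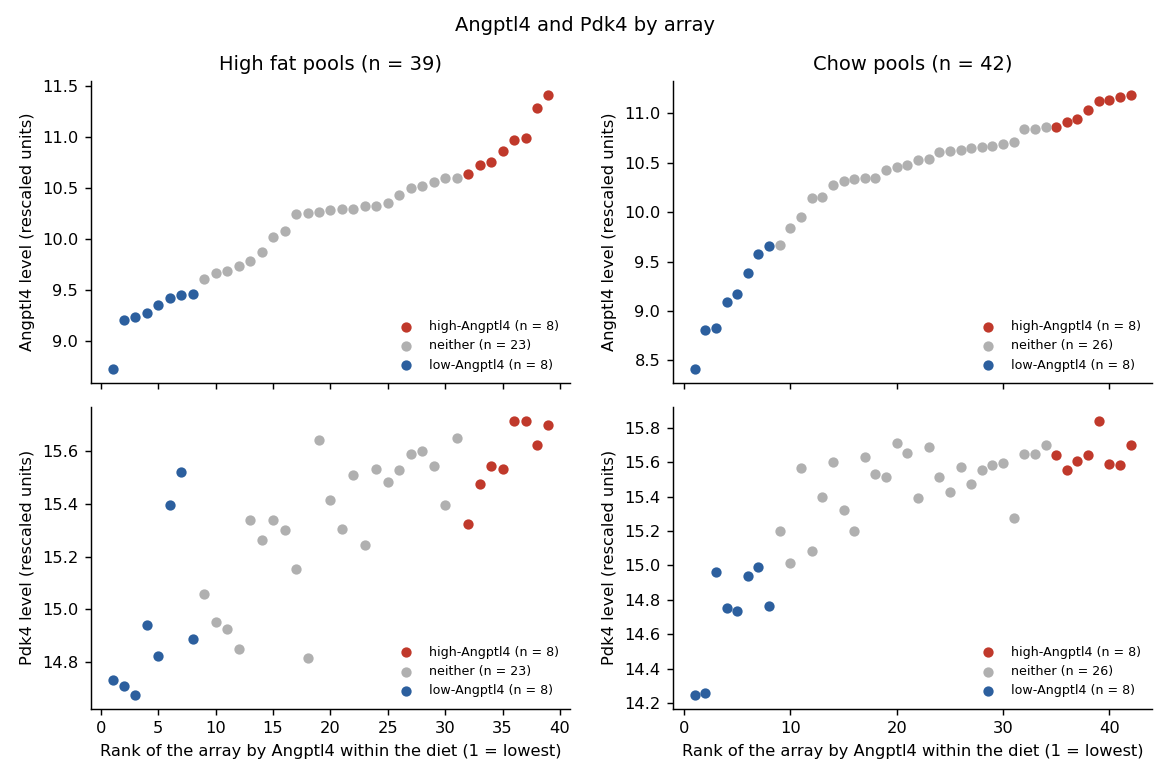
Level of Angptl4 (top) and Pdk4 (bottom) in rescaled units against the rank of each array by Angptl4 within its diet, for 39 high fat pools (left) and 42 chow pools (right). Red points are the 8 high-Angptl4 arrays, blue points the 8 low-Angptl4 arrays and grey points the arrays in neither group. Pdk4 lies between 15.56 and 15.84 in the high-Angptl4 chow arrays, above all 8 low-Angptl4 chow arrays.

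The genes that rose in high-Angptl4 hearts included Ucp3, Pdk4, Cpt1a and Ehhadh of fatty acid use, the lipid droplet genes Plin2 and Lipe, the FOXO targets Txnip and Fbxo32, and Hmox1, Gclm, Mt2 and Slc40a1. The genes that fell included the transferrin receptor Tfrc, the haem synthesis enzyme Alas1 and the hydroxylase Egln3. With diet in the model, 198 of 22179 genes (0.893%) passed an adjusted p of 0.05 (limma, Benjamini-Hochberg over all genes, Angptl4 left out), 133 higher (0.6%) and 65 lower (0.293%). Without an adjustment 2193 genes had a p under 0.05. The median difference over all genes was -0.00075 units. Of the 190 control probe sets on the arrays, in 3 classes, 0 passed in this fit. The count was 36 when the 6 strains that fall on opposite sides in the 2 diets were left out (20 arrays), 26 on chow arrays alone and 12 on high fat arrays alone. A whole heart is a mixture of cell types, and a lower level cannot be told apart from fewer cells that make the transcript.

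The 49 arrays outside both groups gave the same relation another measurement, in other pools, as a slope on Angptl4 with diet in the model. They are not all of other strains: part of them are the other-diet pools of strains in the groups. The 2 arrays of a strain deviated together from their diet means (median r of 0.25 over 39 strains). Their Angptl4 levels ran from 9.608 to 10.599 on high fat and from 9.665 to 10.864 on chow, narrower than over all arrays. In these 49 arrays 4 genes passed (0.018% of those tested), all with a positive slope, and 1973 genes had an unadjusted p under 0.05. With only genes above the median level tested 6 passed, namely these 4, Txnip and Lrrc51, the last with a negative slope (-0.39). Of the 133 genes that rose, 122 (91.7%) had a positive slope, and of the 65 that fell, 59 (90.8%) had a negative one. Over all genes 53.4% had the same sign in both measurements. Of the 198 called genes, 83 (41.9%) had the same sign at an unadjusted p under 0.05, where 8.90% of all genes had such a p with either sign. Genes are not independent of each other, so these shares carry no p.

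**Figure D2:**
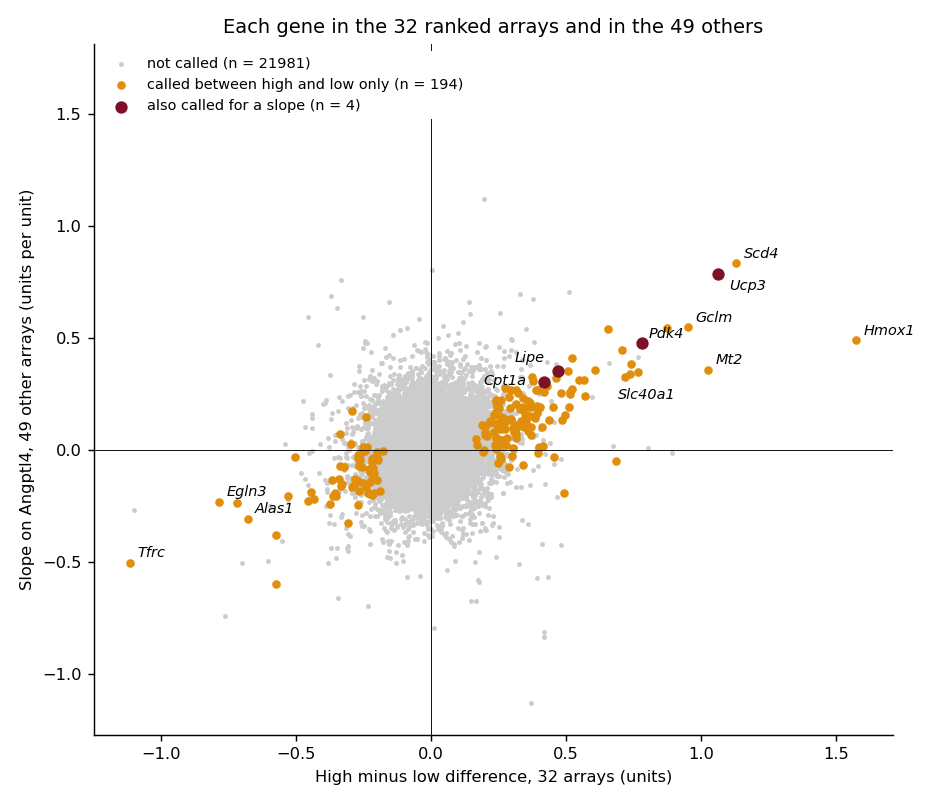
Difference between 16 high-Angptl4 and 16 low-Angptl4 arrays (x axis, units) against the slope on Angptl4 over the other 49 arrays (y axis, units per unit) for 22179 genes. Orange points are the 194 genes called in the 32 arrays alone, dark red points the 4 called in both, and grey points the 21981 not called. Ucp3 stands at a difference of 1.06 and a slope of 0.79, and Tfrc at -1.11 and -0.50.

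The genes that followed Angptl4 in both sets of arrays encode a mitochondrial carrier (Ucp3), the kinase that switches off pyruvate dehydrogenase (Pdk4), the enzyme that commits long fatty acids to import into mitochondria (Cpt1a) and hormone-sensitive lipase (Lipe). Ucp3 was at 10.96, 11.26 and 11.59 units (lowest, median and highest array) in the high-Angptl4 high fat group, against 9.64, 10.09 and 11.11 in the low-Angptl4 high fat group. On chow Ucp3 was at 11.06, 11.19 and 11.54 in the high-Angptl4 group, against 9.75, 10.07 and 10.90 in the low-Angptl4 group. On high fat 5 of 8 and on chow 8 of 8 high-Angptl4 arrays lay above every low-Angptl4 array, a difference of 1.06 ± 0.11 units (SE; adjusted p = 4.23e-07, limma). In the 49 other arrays the Ucp3 slope was 0.79 ± 0.091 units per unit of Angptl4 (SE; adjusted p = 2.6e-07, limma). Pdk4 was at 15.32, 15.59 and 15.72 units (lowest, median and highest array) in the high-Angptl4 high fat group, against 14.67, 14.85 and 15.52 in the low-Angptl4 high fat group. On chow Pdk4 was at 15.56, 15.63 and 15.84 in the high-Angptl4 group, against 14.25, 14.76 and 14.99 in the low-Angptl4 group. The Pdk4 groups did not overlap on chow and did on high fat, where 6 of 8 high-Angptl4 arrays lay above all low ones. Pdk4 differed by 0.78 ± 0.084 units (SE; adjusted p = 4.62e-07, limma), with a slope of 0.48 ± 0.08 units per unit of Angptl4 (SE; adjusted p = 0.00258, limma).

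Cpt1a separated the groups without overlap in both diets, which only 2 of 22179 genes did (0.00902%), the other being Hmox1. Cpt1a was at 12.08, 12.18 and 12.34 units (lowest, median and highest array) in the high-Angptl4 high fat group, against 11.59, 11.92 and 12.03 in the low-Angptl4 high fat group. On chow Cpt1a was at 12.11, 12.21 and 12.50 in the high-Angptl4 group, against 11.59, 11.77 and 11.86 in the low-Angptl4 group. The difference was 0.42 ± 0.05 units (SE; adjusted p = 3.21e-06, limma), and the slope in the other arrays was 0.31 ± 0.053 units per unit of Angptl4 (SE; adjusted p = 0.00282, limma). Lipe was at 9.46, 9.65 and 9.86 units (lowest, median and highest array) in the high-Angptl4 high fat group, against 9.01, 9.21 and 9.60 in the low-Angptl4 high fat group. On chow Lipe was at 9.56, 9.86 and 9.96 in the high-Angptl4 group, against 9.03, 9.25 and 9.50 in the low-Angptl4 group. On high fat 4 of 8 and on chow 8 of 8 high-Angptl4 arrays exceeded every low one, with a difference of 0.47 ± 0.06 units (SE; adjusted p = 8.39e-06, limma). The Lipe slope was 0.36 ± 0.067 units per unit of Angptl4 (SE; adjusted p = 0.0124, limma). Without the 3 arrays outside both groups that were rich in hepatocyte markers, Lipe missed the threshold for the slope and Cpt1a, Pdk4 and Ucp3 passed it. With each array centred on its median gene, Cpt1a missed it.

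**Figure D3:**
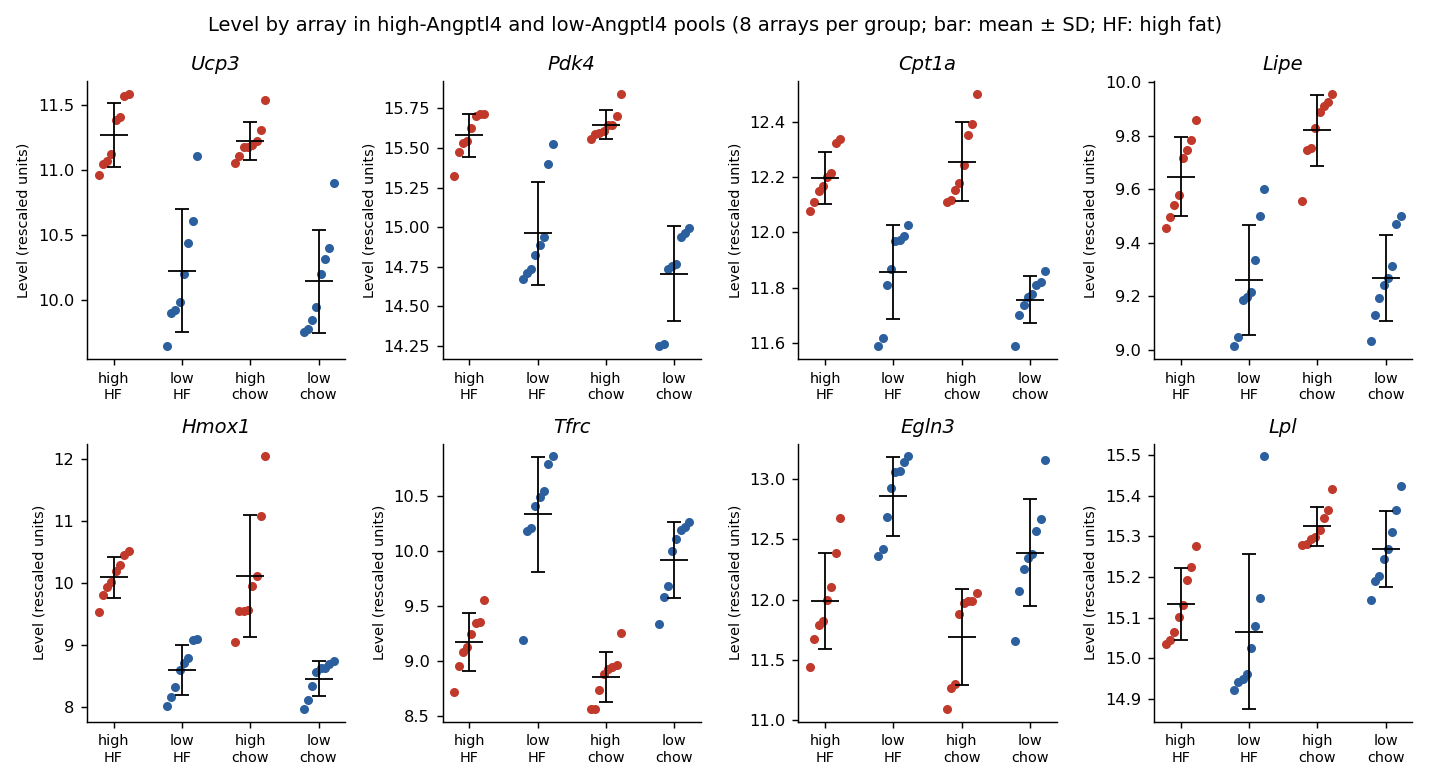
Level in rescaled units of 8 genes in each of the 32 arrays, by diet and group, with 8 arrays per column, the high-Angptl4 group left of the low-Angptl4 group, and bars for the mean ± SD. Cpt1a and Hmox1 do not overlap between the groups in either diet, Tfrc and Egln3 lie lower in the high-Angptl4 groups, and Lpl overlaps widely.

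Of the PPAR and fatty acid response genes, 12 of 31 measured (38.7%) rose in high-Angptl4 hearts, 0 fell and 19 did not pass, with a median difference of 0.16 units. Over all genes 0.6% rose and 0.293% fell, and with only genes above the median level tested 346 of 11089 passed. Over the alternatives other than single arrays left out, 2 to 15 genes of this list passed. The members that passed were Ucp3, Acot1, Pdk4, Ehhadh, Txnip, Acot2, Plin2, Cpt1a, Pank1, Mlycd, Pnpla2 and Plin5. Ehhadh was at 9.25, 9.52 and 9.96 units in high-Angptl4 and 8.34, 8.81 and 9.23 in low-Angptl4 high fat arrays, and at 9.21, 9.67 and 10.15 in high-Angptl4 and 8.59, 8.96 and 9.27 in low-Angptl4 chow arrays. Ehhadh, a bifunctional enzyme of peroxisomal fatty acid oxidation, rose by 0.74 ± 0.10 units (SE; adjusted p = 8.39e-06, limma), and 8 of 8 high fat and 6 of 8 chow high-Angptl4 arrays lay above every low array. Acot1 was at 7.55, 8.67 and 9.27 units in high-Angptl4 and 7.07, 7.80 and 8.01 in low-Angptl4 high fat arrays, and at 7.25, 8.41 and 8.99 in high-Angptl4 and 7.15, 7.39 and 7.88 in low-Angptl4 chow arrays. Acot1, a thioesterase that splits fatty acyl-CoA in the cytosol, rose by 0.87 ± 0.16 units (SE; adjusted p = 0.00198, limma) with overlap in both diets. Its mitochondrial counterpart Acot2 averaged 13.66 in high-Angptl4 and 13.14 in low-Angptl4 arrays and rose by 0.52 ± 0.10 units (SE; adjusted p = 0.00284, limma); the 2 genes are close copies, and whether their probe sets tell them apart is not known here. Pank1, a kinase of coenzyme A synthesis, rose by 0.39 ± 0.072 units (SE; adjusted p = 0.00236, limma), and Mlycd, which removes the Cpt1 inhibitor malonyl-CoA, by 0.39 ± 0.073 units (SE; adjusted p = 0.00241, limma). Among the members that did not pass were Cyp4a14, a PPAR target of the liver, with a difference of 0.77 (adjusted p = 0.38), and Fgf21, a fasting hormone, with 0.0025 (adjusted p = 0.998).

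Of 26 measured genes of mitochondrial and peroxisomal fatty acid oxidation 5 rose (Acot1, Ehhadh, Acot2, Cpt1a and Mlycd) and 0 fell. The 5 are 19.2% of the list, where 0.6% of all genes rose. Over the alternatives other than single arrays left out, 1 to 11 passed. Of the 26, 21 were above 0, with a median of 0.0553, against 11003 of 22179 over all genes tested. As examples from the mitochondrial cycle, Acadm, the medium-chain acyl-CoA dehydrogenase, differed by -0.011, Acadvl, the very long-chain one, by 0.053, and Hadha, a subunit of the trifunctional protein, by 0.043, and none of these passed. In the 49 other arrays 25 of the 26 genes had a positive slope (median 0.16), against 12262 of 22179 over all genes (median 0.013).

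Coat proteins and lipases of the lipid droplet were among the genes that rose. Of 21 lipid droplet and triglyceride genes 6 rose and 0 fell (Plin2, Lipe, Pnpla2, Gpam, Plin5 and Plin4), with a median of 0.0366. The 6 are 28.6% of the list, where 0.6% of all genes rose. Over the alternatives other than single arrays left out, 0 to 9 passed. Plin2 was at 11.90, 12.13 and 12.38 units in high-Angptl4 and 11.57, 11.70 and 11.998 in low-Angptl4 high fat arrays, and at 11.99, 12.18 and 12.58 in high-Angptl4 and 11.28, 11.62 and 12.03 in low-Angptl4 chow arrays. Plin2, a droplet coat protein, rose by 0.49 ± 0.071 units (SE; adjusted p = 5.08e-05, limma), and 7 of 8 high fat and 6 of 8 chow high-Angptl4 arrays lay above every low array. Pnpla2, the adipose triglyceride lipase that starts the breakdown of stored fat, averaged 13.70 in high-Angptl4 and 13.32 in low-Angptl4 arrays and rose by 0.38 ± 0.074 units (SE; adjusted p = 0.00436, limma). Gpam, the acyltransferase that begins glycerolipid synthesis, rose by 0.36 ± 0.068 units (SE; adjusted p = 0.00264, limma). The coat proteins Plin5 and Plin4 rose by 0.29 (adjusted p = 0.0455) and 0.29 (adjusted p = 0.0325), and the calls were lost without any 1 of 21 arrays for Plin5 and of 11 for Plin4 (adjusted p up to 0.0788 and 0.066). Plin1, the coat protein of white adipocytes, differed by -0.13 and Lpin1, a phosphatidate phosphatase, by -0.30, and neither passed (adjusted p = 0.893 and 0.0781).

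Of 20 measured genes of lipoprotein lipase control and fatty acid uptake, besides Angptl4, 1 rose and 0 fell, with a median of 0.0332. Without BXD48 on high fat 3 of them passed, and with any 1 of BXD61, BXD81 and BXD98 on high fat and BXD56 and BXD97 on chow left out 2 did. Over the other alternatives 0 to 5 passed. The 1 that rose is 5% of the list, where 0.6% of all genes rose. With only genes above the median level tested, 346 of 11089 passed, so 1 member does not set this list apart. Lpl was at 15.03, 15.12 and 15.28 units in high-Angptl4 and 14.92, 14.99 and 15.50 in low-Angptl4 high fat arrays, and at 15.28, 15.31 and 15.42 in high-Angptl4 and 15.14, 15.26 and 15.42 in low-Angptl4 chow arrays. The Lpl groups overlapped in both diets, with a difference of 0.062 ± 0.046 units (SE; adjusted p = 0.731, limma). Gpihbp1 was at 10.98, 11.10 and 11.20 units in high-Angptl4 and 10.76, 10.999 and 11.27 in low-Angptl4 high fat arrays, and at 11.003, 11.10 and 11.26 in high-Angptl4 and 10.62, 10.99 and 11.07 in low-Angptl4 chow arrays. Gpihbp1, which holds the lipase in the capillary, differed by 0.15 ± 0.051 units (SE; adjusted p = 0.216, limma), again with overlap. The lipase maturation factor Lmf1 differed by -0.13 (adjusted p = 0.244), the fatty acid transporter Cd36 by 0.064 (adjusted p = 0.673) and the lipoprotein receptor Vldlr by 0.25 (adjusted p = 0.0618).

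The member that passed was Slc27a1, a fatty acid transport protein of muscle. Slc27a1 was at 12.46, 12.54 and 13.11 units in high-Angptl4 and 11.95, 12.23 and 12.66 in low-Angptl4 high fat arrays, and at 12.20, 12.90 and 13.02 in high-Angptl4 and 12.01, 12.16 and 12.45 in low-Angptl4 chow arrays. It rose by 0.52 ± 0.083 units (SE; adjusted p = 0.000336, limma), with 3 of 8 high fat and 6 of 8 chow high-Angptl4 arrays above every low array. Of the other measured members of the gene family, Angptl1, Angptl7 and Angptl8 differed by -0.05, 0.26 and -0.015, and Fabp4, a fatty acid binding protein of capillaries and adipocytes, by 0.23 (adjusted p = 0.0641). The differences of the lipase-related genes Lipg, Sel1l, Furin, Pcsk5 and Pcsk6, of Fabp3, Fabp5, Slc27a4, Slc27a6 and of Lmf2 lay between -0.10 and 0.13, and none passed.

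Part of the FOXO targets and genes of protein breakdown rose as well. Of 30 insulin and FOXO signalling genes 10 rose and 0 fell, with a median of 0.14, and 2 of them, Pdk4 and Txnip, stand in the PPAR list too. The 10 are 33.3% of the list, where 0.6% of all genes rose. Over the alternatives other than single arrays left out, 0 to 14 passed. Txnip was at 14.41, 14.61 and 14.69 units in high-Angptl4 and 13.70, 14.04 and 14.50 in low-Angptl4 high fat arrays, and at 14.60, 14.64 and 14.81 in high-Angptl4 and 13.46, 14.08 and 14.36 in low-Angptl4 chow arrays. Txnip, an arrestin that limits glucose uptake, rose by 0.57 ± 0.071 units (SE; adjusted p = 6.84e-06, limma), and 6 of 8 high fat and 8 of 8 chow high-Angptl4 arrays lay above every low array. In the 49 other arrays its slope was 0.31 ± 0.066 units per unit of Angptl4 (SE; adjusted p = 0.0672, limma), short of the threshold. It passed when only genes above the median level were tested. Irs2, an adaptor of the insulin receptor, averaged 9.96 in high-Angptl4 and 9.56 in low-Angptl4 arrays and rose by 0.40 ± 0.089 units (SE; adjusted p = 0.0176, limma). Fbxo32 was at 11.73, 12.08 and 12.31 units in high-Angptl4 and 11.53, 11.70 and 11.93 in low-Angptl4 high fat arrays, and at 11.90, 12.11 and 12.47 in high-Angptl4 and 11.38, 11.78 and 12.01 in low-Angptl4 chow arrays. Fbxo32, the ubiquitin ligase atrogin-1, rose by 0.36 ± 0.067 units (SE; adjusted p = 0.00261, limma). Trim63, the ubiquitin ligase MuRF1, differed by 0.14 (adjusted p = 0.365) and Foxo1 itself by 0.12 (adjusted p = 0.255), and neither passed.

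Gabarapl1, a protein of the autophagosome, rose by 0.44 ± 0.073 units (SE; adjusted p = 0.000664, limma), Eif4ebp1, a repressor of translation, by 0.31 and Ulk1, the kinase that starts autophagy, by 0.30. Without any 1 of 6 arrays Ulk1 missed the threshold (adjusted p up to 0.0558). The other risers were Cited2 (0.34), a co-regulator of transcription, and the cell cycle inhibitors Ccng2 (0.34) and Cdkn1b (0.27). Cited2 missed the threshold without any 1 of 4 arrays and Cdkn1b without any 1 of 8 (adjusted p up to 0.0558 and 0.0597). Of 21 muscle atrophy and autophagy genes 5 rose and 0 fell, 4 of them already named, and the fifth was Sqstm1, the autophagy receptor p62, which rose by 0.34 ± 0.057 units (SE; adjusted p = 0.000664, limma). The 5 are 23.8% of the list, where 0.6% of all genes rose. Over the alternatives other than single arrays left out, 0 to 9 passed.

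**Figure D4:**
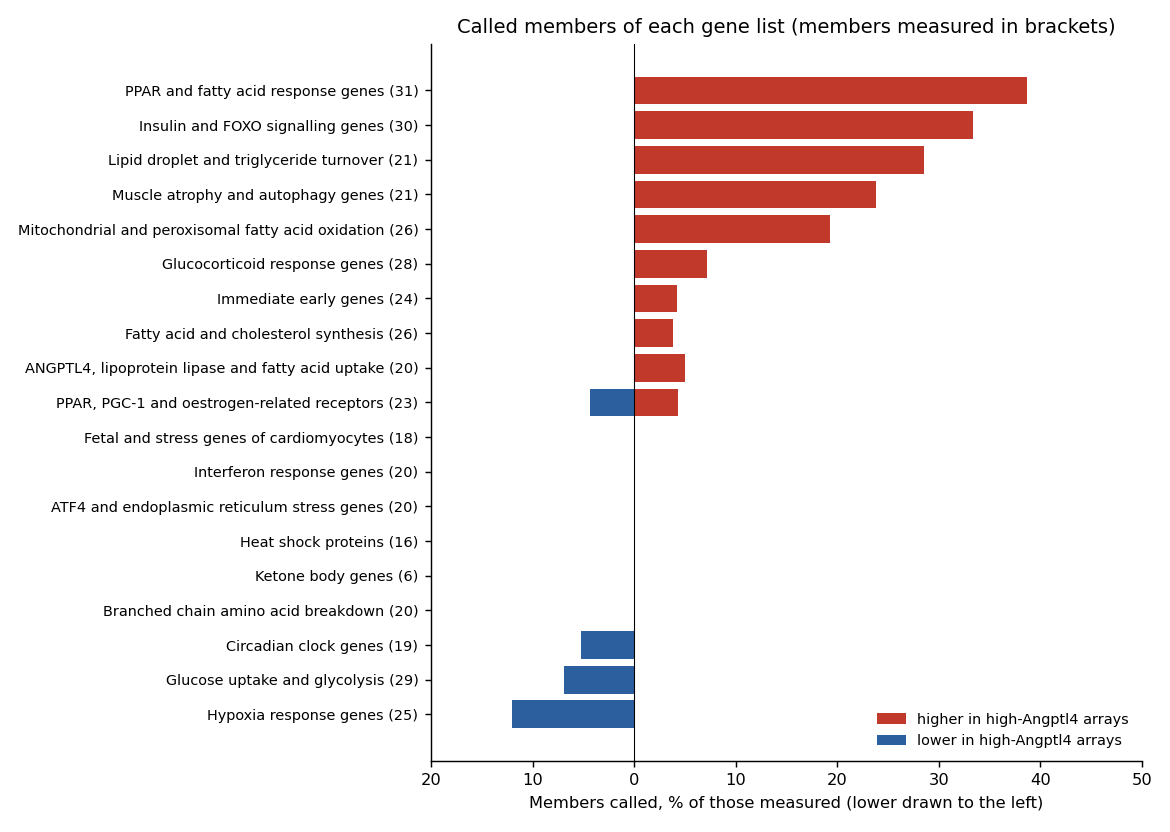
Share of the measured members of each of 19 gene lists (measured members in brackets) that passed as higher (red, to the right) or lower (blue, to the left) in high-Angptl4 arrays, in percent. The PPAR list has 38.7% of members higher and the hypoxia list 12% lower, against 0.6% higher and 0.293% lower over all genes. The shares over all genes include dim genes, and 195 of the 198 called genes stood above the median gene level. So did 341 of the 376 list genes. With only genes above that level tested, 346 of 11089 genes and 49 of the 341 list genes passed.

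The largest rise of all named genes was that of Hmox1, which breaks down haem. Hmox1 was at 9.53, 10.12 and 10.52 units in high-Angptl4 and 8.02, 8.66 and 9.11 in low-Angptl4 high fat arrays, and at 9.06, 9.76 and 12.05 in high-Angptl4 and 7.97, 8.60 and 8.76 in low-Angptl4 chow arrays. The groups did not overlap in either diet, and the difference was 1.57 ± 0.19 units (SE; adjusted p = 2.49e-06, limma). Gclm was at 10.99, 11.60 and 11.98 units in high-Angptl4 and 10.30, 10.51 and 10.96 in low-Angptl4 high fat arrays, and at 10.97, 11.48 and 12.88 in high-Angptl4 and 10.46, 10.62 and 11.02 in low-Angptl4 chow arrays. Gclm, the modifier subunit of the enzyme that limits glutathione synthesis, rose by 0.95 ± 0.12 units (SE; adjusted p = 6.57e-06, limma), with 8 of 8 high fat and 7 of 8 chow high-Angptl4 arrays above every low array. Mt2 was at 11.35, 11.999 and 12.36 units in high-Angptl4 and 10.52, 11.04 and 12.15 in low-Angptl4 high fat arrays, and at 11.82, 12.54 and 13.10 in high-Angptl4 and 10.66, 11.20 and 11.82 in low-Angptl4 chow arrays. Mt2, a metallothionein that binds zinc and copper, rose by 1.03 ± 0.14 units (SE; adjusted p = 3.56e-05, limma) with overlap on high fat, and Mt1 rose by 0.51 ± 0.11 units (SE; adjusted p = 0.00923, limma). Slc40a1 was at 10.21, 10.71 and 11.03 units in high-Angptl4 and 9.57, 9.92 and 10.36 in low-Angptl4 high fat arrays, and at 10.03, 10.42 and 11.06 in high-Angptl4 and 9.55, 9.81 and 10.21 in low-Angptl4 chow arrays. Slc40a1 encodes ferroportin, the exporter of iron, and rose by 0.72 ± 0.09 units (SE; adjusted p = 6.57e-06, limma).

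Tfrc, the receptor that brings in transferrin-bound iron, had the largest fall. Tfrc was at 8.72, 9.19 and 9.56 units in high-Angptl4 and 9.19, 10.45 and 10.86 in low-Angptl4 high fat arrays, and at 8.56, 8.90 and 9.25 in high-Angptl4 and 9.33, 10.06 and 10.26 in low-Angptl4 chow arrays. It fell by 1.11 ± 0.12 units (SE; adjusted p = 4.23e-07, limma). On high fat 4 of 8 high-Angptl4 arrays lay below every low array, where 1 low array (BXD98) stood at 9.19, and on chow 8 of 8 did. Alas1 was at 10.72, 10.90 and 11.53 units in high-Angptl4 and 11.40, 11.67 and 11.74 in low-Angptl4 high fat arrays, and at 10.36, 10.85 and 11.15 in high-Angptl4 and 11.33, 11.60 and 11.87 in low-Angptl4 chow arrays. Alas1, the first enzyme of haem synthesis in most tissues, fell by 0.68 ± 0.075 units (SE; adjusted p = 6.1e-07, limma), and 7 of 8 high fat and 8 of 8 chow arrays of the high-Angptl4 group lay below every low array. In the 49 other arrays the slopes were 0.49 for Hmox1, 0.55 for Gclm, -0.50 for Tfrc and -0.31 for Alas1, with adjusted p of 0.498, 0.14, 0.453 and 0.45 (limma). None of these slopes passed, and each had the sign of its group difference. Their unadjusted p were 0.0304, 0.00017, 0.0231 and 0.0201 (limma), over the narrower Angptl4 range of these arrays.

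Egln3 was at 11.44, 11.91 and 12.68 units in high-Angptl4 and 12.36, 12.99 and 13.19 in low-Angptl4 high fat arrays, and at 11.09, 11.93 and 12.06 in high-Angptl4 and 11.65, 12.36 and 13.16 in low-Angptl4 chow arrays. Egln3, a prolyl hydroxylase that marks hypoxia-inducible factors for breakdown and is itself induced by hypoxia, fell by 0.78 ± 0.13 units (SE; adjusted p = 0.000579, limma). Of 25 hypoxia response genes 3 fell and 0 rose, with a median of -0.0357, and 5 passed when any 1 of BXD48 and BXD61 on high fat and BXD97 on chow was left out, and 0 to 7 over the other alternatives. Besides Egln3 the members that fell were Hk2 and Ldha, which are also the 2 of 29 genes of glucose uptake and glycolysis that passed, both lower. The shares that fell were 12% of the hypoxia and 6.9% of the glycolysis list, where 0.293% of all genes fell. With only genes above the median level tested, 141 of 11089 fell. Over the alternatives other than single arrays left out, 0 to 4 of the glycolysis list passed. Hk2 was at 10.97, 11.20 and 11.56 units in high-Angptl4 and 11.23, 11.57 and 11.71 in low-Angptl4 high fat arrays, and at 10.95, 11.34 and 11.70 in high-Angptl4 and 11.47, 11.75 and 11.86 in low-Angptl4 chow arrays. Hk2, a hexokinase, fell by 0.35 ± 0.073 units (SE; adjusted p = 0.00786, limma) with overlap in both diets, and Ldha, lactate dehydrogenase A, fell by 0.22 ± 0.048 units (SE; adjusted p = 0.0142, limma). Ppp1r3c, which targets protein phosphatase 1 to glycogen, fell by 0.53 ± 0.068 units (SE; adjusted p = 8.39e-06, limma), whereas the glucose transporters Slc2a4 and Slc2a1 differed by -0.09 and 0.053 and did not pass.

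The gene of the fatty acid receptor PPAR alpha itself, Ppara, was lower in high-Angptl4 hearts. Ppara was at 9.69, 10.04 and 10.34 units in high-Angptl4 and 9.96, 10.36 and 10.58 in low-Angptl4 high fat arrays, and at 9.50, 9.83 and 10.08 in high-Angptl4 and 9.80, 10.28 and 10.47 in low-Angptl4 chow arrays. It fell by 0.35 ± 0.072 units (SE; adjusted p = 0.007, limma), with overlap in both diets. Among 23 measured genes of PPAR, PGC-1 and oestrogen-related receptors, the other that passed was the co-repressor Nrip1, which rose by 0.20 ± 0.042 units (SE; adjusted p = 0.00866, limma). These 2 are 8.7% of the list, where 0.893% of all genes passed. Over the alternatives other than single arrays left out, 0 to 6 of the list passed. Scd4 was at 9.47, 10.79 and 11.89 units in high-Angptl4 and 8.80, 10.11 and 10.66 in low-Angptl4 high fat arrays, and at 10.09, 11.32 and 11.96 in high-Angptl4 and 9.27, 9.80 and 10.17 in low-Angptl4 chow arrays. Scd4, a stearoyl-CoA desaturase, rose by 1.13 ± 0.20 units (SE; adjusted p = 0.00198, limma) and was the 1 called gene of 26 for fatty acid and cholesterol synthesis. Without BXD48 on high fat 3 of the 26 passed, and with any 1 of BXD81, BXD84 and BXD98 on high fat and BXD56 on chow left out 2 did. Over the other alternatives 0 to 3 passed. The 1 of 26 is 3.85%, where 0.6% of all genes rose. With only genes above the median level tested, 346 of 11089 passed.

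Other large rises were those of Tacc2 (0.77), a centrosomal protein, Klhl33 (0.74), Lgals4 (0.71), a galectin, Nrxn2 (0.66), a neurexin, and Myc (0.61), a growth regulator and the single called gene of 24 immediate early genes. Other large falls were those of Rtn4r (-0.72), the Nogo receptor, Tuba8 (-0.57), an alpha tubulin, Prnd (-0.57), Lingo3 (-0.50), Aplnr (-0.45), the apelin receptor, Fam78a (-0.44), Col15a1 (-0.43), a basement membrane collagen, and Bhlhe40 (-0.37), the 1 called gene of 19 clock genes, of which 2 passed with any 1 of BXD73 and BXD89 on high fat and BXD97 on chow left out. The Prnd call was lost without any 1 of 21 arrays (adjusted p up to 0.0766) and the Nrxn2 call without the chow array of BXD83 (adjusted p = 0.0516). Of 28 glucocorticoid response genes the 2 metallothioneins passed. The called shares were 7.14% of this list, 4.17% of the immediate early and 5.26% of the clock genes, against 0.893% of all genes. With only genes above the median level tested, 346 of 11089 passed, so counts of 1 or 2 do not set these lists apart. Fkbp5, Per1 and Tsc22d3, which glucocorticoids are known to induce in most tissues, differed by 0.16, 0.16 and 0.055 without passing. Of the 28, 20 were above 0, with a median of 0.13, against 11003 of 22179 over all genes tested. In the arrays outside both groups 25 of the 28 had a positive slope (median 0.18), against 12262 of 22179 over all genes (median 0.013). Whether glucocorticoids had a part was not tested. None of the 20 measured genes of branched chain amino acid breakdown, 6 of ketone bodies and 16 heat shock proteins passed. Nor did any of 20 of ATF4 and endoplasmic reticulum stress, 20 of the interferon response and 18 of the fetal programme of cardiomyocytes. Without BXD98 on high fat 2 of the ATF4 list passed, and without BXD56 on chow 1 did. Over the alternatives other than single arrays left out, up to 4 of the ATF4 list, 1 ketone body gene and 1 heat shock protein passed. The branched chain, interferon and fetal lists had none under any alternative.

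By the within-diet correlation with Angptl4 over the 49 arrays outside both groups, given as a description, the genes most like it were Ucp3 (r = 0.79), Cpt1a (0.68), Pdk4 (0.66), Lipe (0.63) and Txnip (0.58). Next came Lpcat3 (0.55), Cmtm4 (0.55), Lmod1 (0.54), Zfas1 (0.53) and Adra1b (0.52). These 5 did not pass between the high-Angptl4 and low-Angptl4 arrays, and Lmod1 differed there by -0.16, in the opposite direction. The most negative were Lrrc51 (-0.57), Plekha6 (-0.54), Gspt1 (-0.51), Rsl24d1 (-0.51) and Ube2a (-0.49), of which none passed between the groups, and Lrrc51 differed there by 0.11, also in the opposite direction.

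The contrast had the same sign in high fat and in chow arrays for each of the 198 called genes, which were called on both diets together. On high fat alone 12 genes passed (0.0541%), 8 higher (0.0361%) and 4 lower (0.018%), among them Ucp3, Ehhadh, Hmox1, Gclm, Slc40a1, Tfrc and Alas1. On chow alone 26 passed (0.117%), 19 higher (0.0857%) and 7 lower (0.0316%), among them Ucp3, Ehhadh, Hmox1, Slc40a1, Tfrc, Alas1, Pdk4, Cpt1a, Lipe, Txnip, Mt2, Scd4 and Slc27a1. That a gene passed in 1 diet does not show that the diets differ. For a difference of the contrast between high fat and chow 1 gene passed (0.00451%), the olfactory receptor Olfr1269, and 962 genes had an unadjusted p under 0.05. Olfr1269, which stands at the level of a dim gene, averaged 8.33 in high-Angptl4 and 7.84 in low-Angptl4 high fat arrays, and 7.69 in high-Angptl4 and 8.08 in low-Angptl4 chow arrays.

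Whether a strain keeps its Angptl4 level in its other pool was read from arrays that the ranking on the first diet did not use. The 32 arrays come from 24 strains. Of these, 4 (BXD61, BXD68, BXD95 and BXD101) were high on high fat and low on chow, 2 (BXD48 and BXD89) low on high fat and high on chow, 2 (BXD43 and BXD81) high in both and 0 low in both. BXD68 had the highest Angptl4 on high fat, 11.41, and the lowest but 1 on chow, 8.81. In the chow arrays of strains chosen on high fat, Angptl4 averaged 9.94 ± 0.90 in the high-Angptl4 strains and 10.4 ± 0.43 in the low-Angptl4 strains (SD, n = 8 each), a difference of -0.47 (exact permutation test, two-sided, p = 0.206, 0.548 adjusted over 4 comparisons). In the high fat arrays of strains chosen on chow, Angptl4 averaged 10.3 ± 0.67 in the high-Angptl4 and 10.5 ± 0.54 in the low-Angptl4 strains (exact permutation p = 0.411, adjusted 0.548). Pdk4 differed by -0.22 and 0.050 in these 2 comparisons (exact permutation p = 0.338 and 0.733).

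Over the 39 strains with both diets, Angptl4 on high fat and on chow correlated with Pearson's r = -0.12 (permutation p = 0.469, adjusted over Angptl4 and Pdk4 0.617) and Spearman's rho = 0.013 (permutation p = 0.937, adjusted 0.937). Without the 2 strains farthest from the median chow level (BXD68 and C57BL/6J) r was 0.012 and rho 0.083. For Pdk4 r was 0.083 (permutation p = 0.617, adjusted 0.617) and rho 0.26 (permutation p = 0.112, adjusted 0.224). Without the same 2 strains, also the farthest for Pdk4, r was 0.195 (permutation p = 0.247) and rho 0.33 (permutation p = 0.0458), both unadjusted. Of 22180 genes, 0 passed between the other-diet arrays of high-Angptl4 and low-Angptl4 strains (0%, limma), and 1249 had an unadjusted p under 0.05. These other-diet arrays are not a separate set, since the 8 strains that stand in a group on both diets bring arrays of the ranked groups into them, 6 of them with the opposite side.

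**Figure D5:**
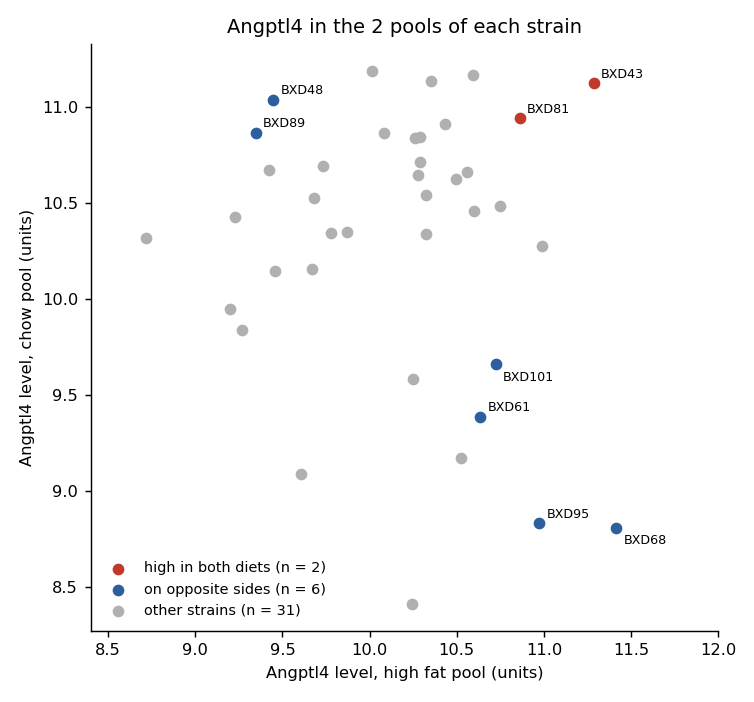
Angptl4 level in the high fat pool (x axis, units) against the chow pool (y axis, units) of each of the 39 strains with both diets. Red points are the 2 strains in the high-Angptl4 group of both diets, blue points the 6 strains on opposite sides and grey points the other 31. BXD68 lies at 11.41 on high fat and 8.81 on chow.

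Markers of other cell types were read in the same arrays. Of 14 hepatocyte markers 14 were higher in high-Angptl4 arrays and 0 passed, with a median of 0.18 units. Over all genes 11003 of 22179 were higher. The marker mean ranged over 7.72 to 11.11 in high-Angptl4 and 7.71 to 9.60 in low-Angptl4 arrays. On chow Fgb, Cyp2e1, Apob, Serpina1a and Cps1 differed by 0.41, 0.64, 0.63, 0.51 and 0.40. On high fat they differed by 0.080, 0.11, -0.025, -0.23 and -0.056. In the arrays outside both groups 14 of 14 markers had a positive slope (median 0.27), against 12262 of 22179 genes (median 0.013). Those arrays include the other hepatocyte-rich chow arrays. With the hepatocyte mean as a covariate 191 genes passed between the groups, and without BXD62 on chow 165 did, both chosen after seeing the data. Of 11 atrial markers 1 was higher and 0 passed, with a median of -0.17 and means of 8.97 to 11.61 in high-Angptl4 and 9.26 to 12.11 in low-Angptl4 arrays. Of 12 white adipocyte markers 1 rose, Aqp7, a glycerol channel that cardiomyocytes also express (0.31; adjusted p = 0.00146), and the list mean ranged over 8.70 to 9.69 in high-Angptl4 and 8.56 to 9.85 in low-Angptl4 arrays. Of these 12 markers 4 were higher, with a median of -0.043, and with any 1 of BXD48 and BXD61 on high fat and BXD97 on chow left out 2 passed. Differences of those that did not pass lay on both sides, such as 0.38 for Pck1 and 0.23 for Fabp4 against -0.11 for Adipoq and -0.40 for Lep, hormones made by fat cells.

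Of 16 macrophage markers 1 was higher and 0 passed (median -0.09), and of 11 fibroblast markers 2 were higher and 0 passed (median -0.13). The other markers that passed were the ventricular connexin Gja1 (-0.24), the cardiomyocyte sodium-calcium exchanger Slc8a1 (-0.27) and the endothelial claudin Cldn5 (0.43). The Slc8a1 call was lost without any 1 of 25 arrays and the Cldn5 call without the chow array of BXD43 or of C57BL/6J (adjusted p up to 0.0907 and 0.0533). None of the brown adipocyte, mesothelial, erythroid, skeletal muscle, lung and T cell markers passed, with 2 of 12 erythroid genes measured, and of 10 ventricular markers 2 passed without BXD68 on high fat. The lung marker Scgb1a1 reached 11.17 units in the low-Angptl4 high fat group, where its median was 6.23. The lung list mean ranged up to 7.90 in low-Angptl4 and up to 7.30 in high-Angptl4 arrays. With adipocyte means as covariates 226 genes passed between the groups, and with atrial and mesothelial means 245 did. The part of these cell types in single differences was not tested beyond these fits.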

How the data were processed

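RNA of about 5 hearts per strain and diet was pooled evenly and hybridised to 81 Affymetrix arrays, per the labels' protocols. The authors deposited a score for each probe set, made with Affymetrix Expression Console per the submitters' processing notes, with no version named; the summarisation of probes is not named there. On every array the score was found to average 8 with an SD of 2. This rescaling removes a shift shared by most transcripts. The plan had assumed log-scale values. The number of arrays limits the precision, and p-values measure the spread between pools.

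Diet was taken from the treatment label and strain from the genotype label. The platform's gene table names 25335 probe sets, 23521 with 1 symbol, 1814 with several (not used), and 16010 are unnamed here. A gene (22180 in all) was represented by its brightest probe set over 81 arrays; 21994 Entrez identifiers were found in RefSeq (GRCm38.p6). No filter on level was applied. Listed genes without a probe set were not analysed here.

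Groups were compared with limma 3.58.1 (lmFit, eBayes; R 4.3.3, statmod 1.5.0) with diet as a term and an adjusted p threshold of 0.05. Single values were compared by exact permutation (SciPy 1.17.1), and correlations with 100000 permutations. The fits were tested on simulated data. The groups, the 19 function lists and 14 marker lists were chosen with earlier results of these data known. Genes are named as measured members of the lipoprotein lipase list, the 12 largest rises and falls among called genes above the median level (predicted genes, olfactory receptors and small RNAs left out), the 5 smallest adjusted p of each list, and the 10 highest and 5 lowest correlations in the 49 other arrays; genes outside this rule, and those given by array, were chosen after their values were seen. Alternatives covered group size, slope, ranking gene, strain, scaling, variance model, dim genes, probe set and tissue markers. The strain label pairs arrays across diets: the 2 arrays of a strain deviated together from their diet means, with a median r of 0.25 over 39 strains and a value over 0.1 in 37.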

Additional observations from a re-analysis of the deposited data

Results flagged for a closer look

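Among 96 groups of 8 arrays (24 genes, 2 sides, 2 diets), 8 held an array far from the rest, its gap to the nearest other array being large against the group's range. For independent, normally spread values that did not choose the arrays, chance flags about 1 in 20 groups. Whether the values here are spread in that way was not tested. The groups were cut from the Angptl4 ranking, so this rate does not apply to Angptl4 itself. On high fat the low-Angptl4 group had BXD84 at 8.719 for Angptl4 (next array 9.199), BXD48 at 15.497 for Lpl (15.149) and BXD98 at 9.187 for Tfrc (10.178). On chow the high-Angptl4 group had BXD43 at 14.812 for Txnip (14.685), BXD83 at 10.797 for Irs2 (10.173) and BXD81 at 12.879 for Gclm (11.810). The low-Angptl4 chow group had BXD95 at 10.211 for Slc40a1 (9.851) and BXD101 at 9.803 for Ppara (10.176).

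The contrast of Olfr1269 differed between the diets by 0.88 units (high fat minus chow; limma interaction, adjusted p = 0.0137), with 0.49 on high fat and -0.38 on chow.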

How the results depend on the processing

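The 198 genes called between the groups became 298 with 12 arrays per side and diet, 686 with a slope over all 81 arrays, 394 with 81 arrays in 3 levels, 434 with arrays ranked by Pdk4 (19 arrays on the same side), 346 among genes above the median level, 36 without strains on opposite sides, 26 on chow alone and 12 on high fat alone. Of the function lists, 35 called genes became 68 with the slope, 59 ranked by Pdk4, 16 without strains on opposite sides, 13 on chow and 3 on high fat. The cause was not tested beyond the change in arrays or genes. Leaving out 1 array gave 157 to 255 genes, and 30 to 42 of the lists. With strain as a replicate block 218 genes passed, the slope had the same 4 genes, the interaction 1, and none of 56 called named genes was lost. The slope count was 3 to 6 under 7 alternatives. None of the 56 changed sign under any alternative; without strains on opposite sides 34 lost their call, on high fat alone 45 and on chow alone 36. Ucp3, Tfrc, Hmox1, Alas1, Ehhadh, Slc40a1 and Myc passed under all of them. For strains chosen on chow, Angptl4 in the high fat arrays differed by 0.063 with 12 per side (main -0.25), and the correlation between diets was 0.012 without 2 strains. Small, uncalled differences of the lipase list changed sign. Angptl1 was 0.13 on high fat; Angptl8 was 0.036 (12 per side), 0.089 (median split), 0.012 (slope), 0.00396 (without strains on opposite sides) and 0.044 (without parents); Sel1l was -0.013 (without strains on opposite sides), -0.00398 (each strain once) and -0.00861 (adipocyte covariates); Furin was -0.00467 without strains on opposite sides. Pcsk5 was 0.011 on chow, Pcsk6 -0.00686 (slope), -0.079 (ranked by Pdk4) and -0.022 (chow), Fabp3 -0.017 and Slc27a4 0.018 (median split), and Slc27a6 0.049 (chow). Lipg was -0.011 (12 per side), -0.00856 (slope), -0.099 (ranked by Pdk4), -0.00933 (each strain once), -0.017 (without parents), -0.00484 (median centred) and -0.12 (chow). Leaving out 1 array at a time, Angptl8 ranged from -0.0363 to 0.0144, Sel1l from -0.00799 to 0.0215 and Lipg from -0.0177 to 0.0356. A mean over several Angptl4 probe sets was not run, since 1 probe set carries its symbol alone.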
